A study of Rattus norvegicus with 9 samples.

Results

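Gene expression was compared between rat pancreatic stellate cells on Matrigel and the same kind of cell on uncoated plastic, with 6 of the 9 arrays of the series, 2 on Matrigel and 4 on plastic, chosen by the surface named in their labels. Quiescent stellate cells hold vitamin A in fat droplets beside the acini; on hard culture plastic they turn into contractile, matrix-secreting myofibroblasts, the state they also take in chronic pancreatitis and in the stroma of pancreatic cancer. Matrigel is a soft gel of basement membrane proteins, mainly laminin and collagen IV, made from a mouse tumour. Cells on it meet other adhesion ligands than on plastic. The arrays carry no measure of how stiff the surfaces were. Contractile, collagen and lipid genes are the usual readout of such cultures; the account here covers the rest of the genome.

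All cells came from the pancreas of male Sprague Dawley rats and were enriched on a Nycodenz density gradient. Dishes of 10 cm, seeded alike, were kept in IMDM with 10% fetal bovine serum and harvested at 72 h. The other 3 arrays, of cells on collagen I, shared the estimate of the spread and serve below only to show which differences from plastic were also differences from another matrix. Each title carries 1 of the letters A, P, S and Z, which the labels leave unexplained: Matrigel replicates 1 and 2 have A and S, plastic replicates 1 to 4 have A, P, S and Z, and the collagen arrays have A, P and Z. Values are given in this order of replicates throughout, as log2 expression levels of Affymetrix rat whole-transcript arrays, so that a difference of 1 is a 2-fold change. The arrays do not give depth, and their number limits the precision; array medians lay between 4.08 and 4.18.

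Transcripts of the mesenchymal genes Col1a1 and Vim were bright on both surfaces, whereas that of the stellate cell marker Des was low on Matrigel. Col1a1, a chain of collagen I, read 12.45 and 12.55 on Matrigel and between 12.56 and 12.95 on plastic, and Vim, the filament protein of mesenchymal cells, read 12.29 and 12.09 against 12.35 to 12.68. Neither passed the test (adjusted p = 0.422 and 0.117). Des, which encodes the stellate cell filament desmin, did: 4.85 and 4.83 on Matrigel against 6.86, 6.68, 6.65 and 6.89 on plastic (difference -1.93 ± 0.13, SE; adjusted p = 0.000208). On Matrigel the level of Des was under the mean level of all genes, which was 5.34 on each Matrigel array. Bulk RNA does not tell fewer cells of a type from less RNA per cell. Markers of macrophages, islet cells and acinar cells were also present and differed between arrays, as described at the end.

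Of 14506 genes, 1504 passed the test between Matrigel and plastic (10.4%), 655 higher on Matrigel (4.52%) and 849 lower (5.85%). The test was limma's moderated test with Benjamini-Hochberg adjustment over all genes, at an adjusted p under 0.05. When each array was re-centred on its own median, the split was 512 higher and 1036 lower, and quantile normalization applied again gave 773 and 692, so the balance of directions depended on the scaling. The median difference over all genes was -0.01. A difference of at least 2-fold was found in 431 of the genes that passed, 187 higher and 244 lower, and of at least 4-fold in 38 and 65. Groups that did not overlap, with both Matrigel arrays on one side of all 4 plastic arrays, were found for 4379 genes (30.2%), and this alone says little about a gene.

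The count of 1504 fell to 759 without Matrigel replicate 1 and to 989 without plastic replicate 1. A narrower set is therefore described, called stable calls: genes that passed, with the same direction and a fold within 1.5 times, in 15 further fits, among them each of the 9 arrays left out in turn and plastic represented by replicates 1 and 3 alone, which share the letters of the Matrigel arrays. In the 2 fits without a Matrigel array the other stands alone, with no spread of its own, and is assumed to vary like the plastic and collagen arrays. There were 404 stable calls (2.79% of all genes), 167 higher on Matrigel and 237 lower. Of these, 18 belong to the contractile, collagen and lipid genes and, apart from Des and Angptl4, are not described. The differences of the letter pairs (Matrigel replicate 1 minus plastic replicate 1, and Matrigel replicate 2 minus plastic replicate 3), which share no array, correlated at r = 0.734 across all genes; genes are not independent replicates.

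**Figure D1:**
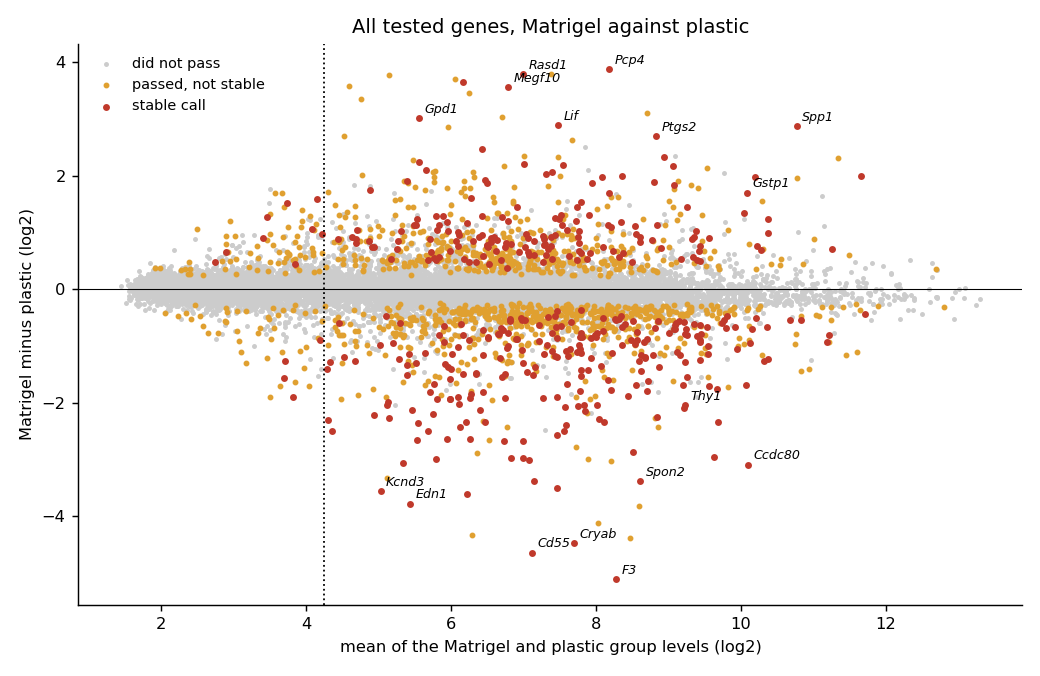
Difference between Matrigel and plastic (y axis, log2) against the mean of both group levels (x axis, log2) for the 14506 tested genes; red points are the 404 stable calls, orange points the other genes that passed and grey points those that did not. The dotted line marks the dim level of 4.25, and for genes such as Edn1 and Kcnd3, whose Matrigel mean lies under it, the plotted difference is a fitted value and the text gives a lower bound.

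The largest stable decrease was in F3, tissue factor, the membrane receptor that starts blood coagulation. It read 5.62 and 5.83 on Matrigel and 10.79, 10.74, 10.72 and 11.09 on plastic (difference -5.11 ± 0.43; adjusted p = 0.000512), a 34.5-fold lower level. Cd55, the decay-accelerating factor that protects cells from complement, read 4.65 and 4.95 against 8.85, 10.00, 9.5 and 9.42 (difference -4.64 ± 0.37; adjusted p = 0.000358). Cryab, the small heat shock protein alphaB-crystallin, read 5.78 and 5.13 against 9.79, 10.30, 9.35 and 10.29 (difference -4.48 ± 0.54; adjusted p = 0.00199). In each of these the gap between the groups was wider than the whole range within either group.

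Of the other large decreases, Prss23, a secreted serine protease, read 4.80 and 4.03 on Matrigel and 8.04, 7.44, 8.27 and 8.33 on plastic (difference -3.61 ± 0.46; adjusted p = 0.00251). Lgals9, which encodes the sugar-binding lectin galectin-9, read 5.43 and 6.01 against 9.47, 9.17, 9.13 and 9.10 (difference -3.50 ± 0.31). Spon2, a secreted matrix protein of the spondin family, read 6.91 and 6.93 against 10.03, 10.89, 9.84 and 10.44 (difference -3.38 ± 0.35). Ccdc80, another secreted matrix-associated protein, was brighter than these on both surfaces, and its difference had a smaller standard error. Its levels were 8.41 and 8.69 against 11.74, 11.52, 11.85 and 11.46 (difference -3.09 ± 0.13; adjusted p = 1.97e-05).

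Some genes fell below the dim level, set at the 40th percentile of the genes' mean levels (log2 4.25), and for them only a lower bound of the change can be given. Edn1, the precursor of the vasoconstrictor endothelin-1, read 3.45 and 3.65 on Matrigel and 7.16, 7.76, 6.77 and 7.61 on plastic, at least 8.45-fold lower (adjusted p = 0.000769). Kcnd3, a voltage-gated potassium channel, read 3.08 and 3.42 against 6.78, 6.67, 7.07 and 6.70, at least 5.89-fold lower. Cntn2, the neural adhesion molecule contactin-2, read 3.71 and 3.90 against 6.74, 7.12, 6.80 and 6.79, at least 6.14-fold lower. Both Matrigel arrays were thus dim for these 3 genes while all plastic arrays were well above the dim level.

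The remaining genes among the 14 largest decreases were Ddah1, Avpr1a, Arsi and Crip1. Ddah1, the enzyme that breaks down asymmetric dimethylarginine, an inhibitor of nitric oxide synthase, read 5.02 and 5.90 against 8.65, 9.25, 8.35 and 9.06 (difference -3.37 ± 0.31). Avpr1a, the V1a vasopressin receptor, read 5.15 and 5.98 against 8.46, 8.58, 8.48 and 8.82 (difference -3.02 ± 0.21; adjusted p = 0.000224). The sulfatase gene Arsi differed by -2.99 ± 0.30 and the small LIM-domain protein gene Crip1 by -2.98 ± 0.30.

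In the other direction the largest stable increase was in Pcp4, a small calmodulin-binding protein best known from Purkinje neurons. It read 10.23 and 10.00 on Matrigel and 6.72, 5.41, 6.80 and 6.07 on plastic (difference 3.87 ± 0.46; adjusted p = 0.00186), 14.6-fold higher. Rasd1, a Ras-like small GTPase first found as induced by dexamethasone, read 8.71 and 9.06 against 5.14, 4.65, 5.73 and 4.87 (difference 3.79 ± 0.28; adjusted p = 0.000289). Megf10, a receptor for the engulfment of dead cells, read 8.60 and 8.54 against 5.42, 4.76, 5.43 and 4.43 (difference 3.56 ± 0.35; adjusted p = 0.000863). The Matrigel arrays lay close together for all 3 genes, and the spread was on the plastic side. On plastic, replicates 1 and 3 read highest for each of the 3 genes, and they were also highest for the macrophage marker list. That list averaged 6.84, 6.07, 7.19 and 6.17 on plastic and 7.21 and 7.55 on Matrigel. The part of macrophage RNA in these increases was not tested.

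Of the other large increases, Csf3, granulocyte colony-stimulating factor, read 8.47 and 7.5 on Matrigel and 4.57, 4.06, 4.85 and 3.85 on plastic (difference 3.65 ± 0.52; adjusted p = 0.00371). Lif, leukemia inhibitory factor, a cytokine of the interleukin-6 family, read 9.15 and 8.68 against 5.71, 6.16, 6.02 and 6.25 (difference 2.88 ± 0.18; adjusted p = 0.000159). Hgf, hepatocyte growth factor, the ligand of the receptor Met, read 8.24 and 7.97 against 5.96, 6.06, 5.53 and 6.09 (difference 2.20 ± 0.21; adjusted p = 0.000831). None of the 3 overlapped between the surfaces, as the rule for these genes required. Csf3 was the least precise of them, with almost 1 log2 unit between the Matrigel arrays. On plastic Csf3 too was highest on replicates 1 and 3, whereas Lif and Hgf did not follow this order.

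Spp1, the secreted phosphoprotein osteopontin, was among the brightest of the genes that rose: 12.29 and 12.12 against 9.67, 8.37, 9.61 and 9.69 (difference 2.87 ± 0.36; adjusted p = 0.00226). Plastic replicate 2 was more than 1 log2 unit below the other plastic arrays for this gene. Ptgs2, cyclooxygenase 2, read 10.41 and 9.94 against 7.61, 7.40, 7.39 and 7.51 (difference 2.70 ± 0.18; adjusted p = 0.000167). Zc3h12a, an RNase that degrades cytokine mRNAs, read 9.03 and 8.26 against 6.35, 6.50, 6.70 and 6.25 (difference 2.19 ± 0.20).

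Matn4, the matrix adaptor protein matrilin-4, rose by 2.47 ± 0.21, Ggt1, which cleaves extracellular glutathione, by 2.24 ± 0.24 and Cemip2, a cell-surface hyaluronidase, by 2.17 ± 0.07. Cemip2 had the smallest adjusted p of the 14 largest increases (6.14e-06), with levels of 10.23 and 10.06 against 8.04, 7.97, 7.96 and 7.94. Gpd1, the cytosolic glycerol 3-phosphate dehydrogenase, read 6.59 and 7.52 against 4.05, 3.88, 4.54 and 3.73, at least 6.67-fold higher (adjusted p = 0.000831). Gpd1 is also on the adipocyte marker list, whose mean level was 5.18 and 5.61 on Matrigel and 4.53, 4.41, 4.76 and 4.38 on plastic. Arhgdib, abundant in blood cells, rose by 2.32 ± 0.26, from 7.74, 7.52, 8.33 and 7.55 to 10.20 and 10.00. The macrophage list means were 7.21 and 7.55 on Matrigel and 6.84, 6.07, 7.19 and 6.17 on plastic. Among the plastic arrays, Gpd1 and Arhgdib too were highest on replicate 3 and next on replicate 1. Plastic replicate 3, at 8.33, was below both Matrigel arrays for Arhgdib. The part of macrophage RNA in these rises was not tested.

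**Figure D2:**
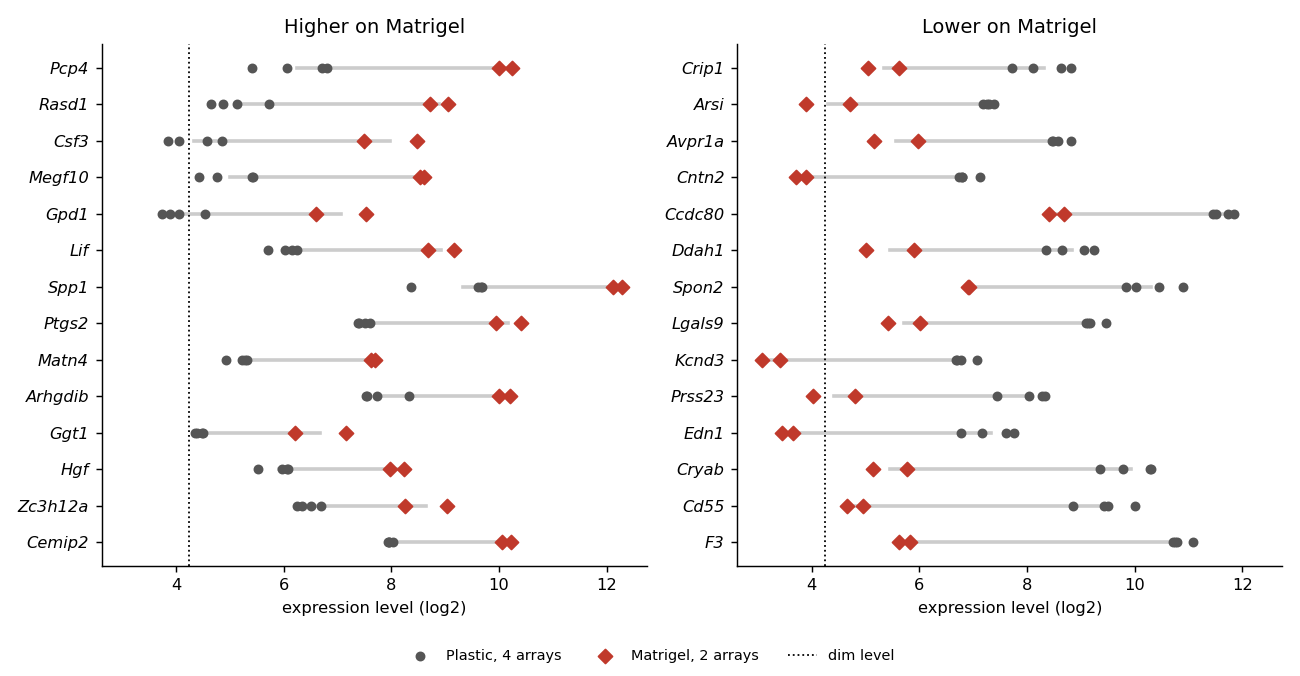
Expression level (x axis, log2) on each array for the 14 named stable calls with the largest increase (left panel) and the 14 with the largest decrease (right panel); red diamonds are the 2 Matrigel arrays, grey circles the 4 plastic arrays, grey bars join the group means, and the dotted line is the dim level of 4.25. For every gene shown both Matrigel arrays lie on one side of all plastic arrays, as the rule for these genes required, and F3 shows the widest gap.

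Promoter sequences are shown for the genes at the top of each direction that had an entry, Pcp4 and Rasd1 among the increases and Cd55 among the decreases, so that the stretches searched below can be seen. They are the 250 bases before the annotated start, from RefSeq's GRCr8 assembly of the rat, printed 5′ to 3′ on the gene's strand, with capitals for the 1 motif found. Pcp4 lies at chr11:49269936-49270185 on the plus strand, Rasd1 at chr10:45267683-45267932 on the minus strand and Cd55 at chr13:44438102-44438351 on the minus strand.
Pcp4: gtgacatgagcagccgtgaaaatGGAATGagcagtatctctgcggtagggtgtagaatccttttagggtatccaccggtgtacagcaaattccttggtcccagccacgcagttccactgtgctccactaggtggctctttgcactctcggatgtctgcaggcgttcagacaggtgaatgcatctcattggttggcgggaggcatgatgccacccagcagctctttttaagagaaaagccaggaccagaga
Rasd1: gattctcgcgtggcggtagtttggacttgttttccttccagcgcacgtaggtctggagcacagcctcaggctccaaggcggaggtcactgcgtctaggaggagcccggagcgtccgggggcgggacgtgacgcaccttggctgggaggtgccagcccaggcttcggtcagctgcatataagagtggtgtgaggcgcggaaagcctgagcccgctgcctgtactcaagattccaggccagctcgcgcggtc
Cd55: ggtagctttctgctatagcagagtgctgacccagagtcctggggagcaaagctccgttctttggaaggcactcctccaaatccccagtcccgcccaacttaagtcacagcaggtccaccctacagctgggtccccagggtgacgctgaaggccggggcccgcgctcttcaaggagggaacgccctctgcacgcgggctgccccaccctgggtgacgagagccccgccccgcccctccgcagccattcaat

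The capitals in Pcp4 mark the letters GGAATG, the core of the sites bound by TEAD factors, the partners of the coactivators Yap and Taz, at bases -227 to -222 from the start. Promoters of 300 bases (250 before to 50 after the start) were matched to 11950 of the 14506 genes and 316 of the 404 stable calls, 118 higher and 198 lower. GGAATG was found on either strand in 12% of all of them, in 11% of the stable calls higher on Matrigel and in 14.1% of those lower. The AP-1 site TGANTCA was found in 6.23%, 5.08% and 5.05% of these promoters, and the cAMP element TGACGTCA in 2.46%, 2.54% and 4.04%. The E-box CACGTG was in 7.88%, 5.93% and 7.58%, and the antioxidant element TGACNNNGC, which can overlap an AP-1 site, in 13.8%, 11% and 12.1%. Further motifs were searched with letter patterns that are not printed here. They were the CArG box of serum response factor (1.28%, 1.69% and 2.53%), the interferon response element (3.41%, 2.54% and 5.05%) and the NF-kappaB site (5.97%, 7.63% and 8.08%). These shares are descriptions of short windows, and a match is not evidence of binding.

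Among gene lists, the share of members that passed was compared with the 10.4% of all genes. Members and lists were chosen with earlier results of these data known, so shares above 10.4% are descriptions and no test. All genes include 5633 that were dim on both surfaces, and the lists differ in their part of such genes. Of 43 genes of BMP, activin and TGF-beta signalling, 8 rose and 11 fell, and 10 genes passed without Matrigel replicate 1; the list's median difference was -0.08, against -0.01 over all genes. Stable calls in this list were 8 lower and 1 higher.

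Of the ligand genes of that list that passed, Bmp6, Gdf10, Inhbb, Tgfb2 and Tgfb3 fell and Bmp2 and Tgfb1 rose. Tgfb1 differed by 1.76 ± 0.36 and Tgfb2 by -1.80 ± 0.46 (adjusted p = 0.0169 and 0.0416); these genes and Bmp2 (adjusted p = 0.0208), whose plastic level was dim, were not stable calls. Bmp6, a bone morphogenetic protein, read 5.76 and 5.26 on Matrigel and 8.46, 8.65, 8.19 and 8.60 on plastic (difference -2.97 ± 0.18; adjusted p = 0.000149). Tgfb3, a TGF-beta isoform, read 5.59 and 5.99 against 7.33, 7.87, 7.96 and 7.68 (difference -1.92 ± 0.22), and Inhbb, the activin B subunit, fell by 1.52 ± 0.17. Gdf10, a further ligand of this family, read 3.83 and 4.44 against 5.99, 6.65, 5.59 and 6.28, at least 3.44-fold lower. Of their partners, Ltbp1, which holds latent TGF-beta in the matrix, fell by 1.11 ± 0.11, and the type I receptor gene Acvrl1 by 0.90 ± 0.11. Fstl1 and Fstl3, which encode follistatin-like proteins, also fell, by 0.54 ± 0.08 and 0.88 ± 0.15, and the type II BMP receptor gene Bmpr2 was the only stable call of this list that rose (0.57 ± 0.09). Those last 3 and Bmp2, Tgfb1 and Tgfb2 were outside the naming rule and were chosen after their values were seen.

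Growth factor genes differed in direction by family member. Of 37 FGF, EGF and HGF ligands and receptors, 3 rose and 3 fell, and 5 of these were stable calls. Hgf, given above, and Fgf7, the keratinocyte growth factor, rose; Fgf7 read 10.60 and 10.61 on Matrigel and 9.88, 9.70, 9.98 and 9.82 on plastic (difference 0.76 ± 0.09; adjusted p = 0.00202). Both are mesenchymal factors that act on epithelial receptors. Fgf18 fell, from 7.35, 7.51, 7.17 and 7.34 to 4.56 and 5.26 (difference -2.44 ± 0.19; adjusted p = 0.000329). The receptor genes Egfr and Fgfr3 fell by 1.35 ± 0.17 and 1.85 ± 0.24.

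Of 42 PDGF, VEGF, angiopoietin and IGF genes, 5 rose and 7 fell, with 6 calls without Matrigel replicate 1. The stable decreases were 2 binding proteins of insulin-like growth factors, a receptor-modifying protein and a lymphatic growth factor. Igfbp3 read 6.99 and 6.82 on Matrigel and 9.30, 9.22, 9.47 and 8.75 on plastic (difference -2.28 ± 0.20; adjusted p = 0.000553), and Igfbp6 read 5.73 and 5.57 against 8.42, 8.90, 7.69 and 8.28 (difference -2.68 ± 0.38). Ramp3, a partner of the calcitonin receptor-like receptor, fell by 2.34 ± 0.22 and Vegfc by 1.61 ± 0.25. Angptl4, a secreted inhibitor of lipoprotein lipase, rose from 6.88, 7.68, 6.70 and 7.09 to 8.99 and 9.15 (difference 1.98 ± 0.27). Tie1, an endothelial receptor, rose from 4.13, 3.93, 4.45 and 4.21 to 5.03 and 5.42, at least 1.90-fold; it is also an endothelial marker, and the mean of that list was 4.56 and 4.44 on Matrigel and 4.41, 4.36, 4.48 and 4.42 on plastic.

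Wnt ligands, receptors and antagonists (41 genes) gave 4 calls in each direction, with 4 in all without plastic replicate 1 and 5 without Matrigel replicate 1 or plastic replicate 4, and the stable calls were receptor genes. Fzd3 read 6.31 and 6.33 on Matrigel and 5.38, 5.19, 5.33 and 5.23 on plastic (difference 1.04 ± 0.08; adjusted p = 0.000289). Fzd1 read 9.0 and 9.07 against 8.17, 8.12, 7.66 and 8.29 (difference 0.98 ± 0.15; adjusted p = 0.00611). In the Notch pathway 5 of 22 genes rose and 0 fell, but 0 passed without Matrigel replicate 1, 2 without plastic replicate 1 or collagen replicate 2, and 3 without any other plastic array, and none was a stable call. Hes1, the target gene of Notch receptors, read 7.10 and 6.44 against 5.47, 5.13, 5.89 and 5.63 (difference 1.24 ± 0.24; adjusted p = 0.013), with an adjusted p of up to 0.102 in the fits that ended the call, those without Matrigel replicate 1 and with plastic replicates 1 and 3 alone. Of 11 hedgehog genes 2 fell, and 0 passed without Matrigel replicate 1, Matrigel replicate 2 or plastic replicate 1 and 1 without collagen replicate 1 or any other plastic array.

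Axon guidance genes, whose products also steer the movement of other cells, gave 7 increases and 5 decreases among 49 genes, and 7 calls without Matrigel replicate 1. Receptors and ligands both rose. Plxnd1, a semaphorin receptor, read 8.57 and 8.27 on Matrigel and 6.46, 6.23, 6.35 and 6.38 on plastic (difference 2.06 ± 0.14; adjusted p = 0.000224), and Ntn1, the ligand netrin-1, read 8.37 and 8.28 against 6.0, 6.07, 6.57 and 6.57 (difference 2.02 ± 0.18; adjusted p = 0.000594). Robo1, a receptor of Slit proteins, rose by 1.18 ± 0.12. The neuropilins, which are co-receptors of semaphorins and VEGF, went opposite ways. Nrp2 rose from 8.48, 8.19, 8.51 and 8.18 to 9.32 and 9.09 (difference 0.86 ± 0.13), whereas Nrp1 fell from 8.34, 8.03, 8.34 and 8.33 to 7.03 and 7.52 (difference -0.99 ± 0.14). The semaphorin gene Sema3d read 3.98 and 4.23 against 5.93, 6.51, 6.06 and 6.07, at least 3.72-fold lower.

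Early response genes and feedback regulators changed in both directions. Of 23 immediate-early and AP-1 factor genes, 5 rose and 3 fell. Egr1, a zinc finger factor induced by serum and growth factors, read 9.72 and 10.28 on Matrigel and 8.10, 8.05, 8.35 and 8.13 on plastic (difference 1.84 ± 0.19; adjusted p = 0.00116). Ier3 rose by 1.44 ± 0.13, whereas Mafk, a small Maf factor, and Ier5 fell by 0.72 ± 0.09 and 0.50 ± 0.07. Of 26 ERK feedback phosphatases and Sprouty genes, 7 rose and 2 fell, and 4 passed without Matrigel replicate 1. The Sprouty family itself divided: Spry4 rose from 6.05, 6.08, 6.08 and 6.55 to 7.97 and 7.30 (difference 1.44 ± 0.21), and Spry1 fell from 7.44, 8.21, 7.04 and 7.89 to 5.14 and 5.46 (difference -2.35 ± 0.30). Spry2 fell by 0.66 ± 0.08 and the related Spred3 rose by 0.81 ± 0.11.

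Of 48 mesenchymal and developmental transcription factors, 8 rose and 5 fell, and 6 passed without Matrigel replicate 1. Tbx3 read 8.31 and 7.82 on Matrigel and 6.79, 6.90, 6.60 and 6.94 on plastic (difference 1.26 ± 0.15). Snai1, a repressor of epithelial genes, read 8.93 and 8.57 against 7.54, 7.65, 7.56 and 7.89 (difference 1.10 ± 0.14; adjusted p = 0.00211), and Prrx1, a homeobox factor of limb and other mesenchyme, rose by 0.71 ± 0.09. The stable calls that fell were Gata6, by 1.08 ± 0.17, and Wt1, by 1.06 ± 0.17. Wt1 is the Wilms tumour factor that is also expressed in mesothelium. Wt1 read 6.97 and 7.53 against 8.40, 8.06, 8.40 and 8.37; it was the 1 call among 10 mesothelial markers, with 3 calls without Matrigel replicate 2 and 2 without plastic replicate 4. The 1 call among the mesothelial markers was 10% of them, near the 10.4% of all genes. The clock gene Per1 rose by 1.16 ± 0.18 and was the 1 stable call among 17 circadian genes. Of those 17 genes 2 rose and 1 fell (17.6%), and 5 passed without plastic replicate 3.

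Of 33 integrins and focal adhesion partners, 3 rose and 7 fell; 5 passed without Matrigel replicate 1 and 6 without Matrigel replicate 2, and the 4 stable calls were all lower. Itgbl1, a secreted protein with integrin-like repeats, read 4.16 and 4.24 on Matrigel and 6.90, 6.93, 6.81 and 6.82 on plastic, at least 6.13-fold lower (adjusted p = 1.73e-05). Ddr1, a collagen-binding receptor tyrosine kinase, read 6.16 and 6.48 against 8.38, 8.01, 8.30 and 8.24 (difference -1.91 ± 0.22; adjusted p = 0.00168). Itgb1, the beta 1 chain shared by most collagen and laminin receptors, was bright on both surfaces and fell by 0.43 ± 0.07, from 12.001, 11.92, 11.90 and 11.89 to 11.45 and 11.55 (adjusted p = 0.00645). Parva, which links integrin-linked kinase to actin, fell by 0.55 ± 0.08.

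Of 51 cadherins and immunoglobulin adhesion molecules, 4 rose and 6 fell, with 3 calls without Matrigel replicate 1. Thy1, the surface glycoprotein used to mark fibroblasts, read 8.31 and 8.10 on Matrigel and 9.96, 10.60, 9.96 and 10.46 on plastic (difference -2.04 ± 0.21; adjusted p = 0.000935). Alcam read 6.86 and 7.76 against 9.41, 8.83, 9.29 and 8.83 (difference -1.78 ± 0.26), and the junction protein gene Tjp1 fell by 0.54 ± 0.08.

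Of 56 proteoglycan, hyaluronan and matricellular genes, 7 rose and 10 fell, and 9 passed without Matrigel replicate 1. Stable increases were Spp1 and Matn4, given above, and Chst15, a sulfotransferase that makes chondroitin sulfate E (difference 1.29 ± 0.16). Ccn3, a matricellular protein of the CCN family, read 7.71 and 7.30 on Matrigel and 9.26, 9.82, 9.49 and 8.98 on plastic (difference -1.88 ± 0.25; adjusted p = 0.00285). Its relative Ccn5 read 3.92 and 4.16 against 5.36, 5.43, 5.44 and 5.02, at least 2.09-fold lower. Ugdh, which makes the UDP-glucuronate needed for hyaluronan and other glycosaminoglycans, fell by 0.81 ± 0.10, from 11.71, 11.55, 11.52 and 11.67 to 10.77 and 10.84.

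Of 44 tubulins and microtubule proteins 1 rose and 4 fell (11.4%, near the 10.4% of all genes), with no stable call. Receptors for vasoactive and phospholipid ligands gave 2 increases and 7 decreases among 56 genes, and 5 calls without Matrigel replicate 1. Avpr1a, given above, and Lpar1, a receptor for lysophosphatidic acid, were the stable calls; Lpar1 read 8.48 and 7.90 on Matrigel and 9.55, 9.46, 9.52 and 9.70 on plastic (difference -1.37 ± 0.16; adjusted p = 0.00193). Pde3a, a phosphodiesterase that degrades cyclic AMP, fell by 1.52 ± 0.20 and was the 1 stable call of 21 glucocorticoid and cAMP response genes, of which 2 rose and 2 fell, with 2 calls without Matrigel replicate 2.

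Of 24 genes of prostaglandin and leukotriene synthesis, 6 rose and 3 fell, and 5 passed without Matrigel replicate 1. Pla2g4a, the cytosolic phospholipase that frees arachidonic acid, read 9.20 and 8.98 on Matrigel and 8.12, 7.92, 7.84 and 8.04 on plastic (difference 1.11 ± 0.12; adjusted p = 0.00124). Ptgs2, the next enzyme, rose by 2.70 as given above. Ptges, the terminal prostaglandin E synthase, read 11.26 and 10.73 against 9.72, 9.73, 9.57 and 10.04 (difference 1.23 ± 0.17; adjusted p = 0.00295). Ptgis, which turns the same intermediate into prostacyclin, fell from 7.98, 7.55, 7.75 and 7.85 to 6.38 and 6.25 (difference -1.47 ± 0.21; adjusted p = 0.00396). Pla2g7, the platelet-activating factor hydrolase, which macrophages also make, rose by 1.87 ± 0.28. It read 5.32 and 5.24 on plastic replicates 1 and 3, whose macrophage list means were the highest on plastic, and 5.83 and 5.84 on the others, against 7.86 and 7.0 on Matrigel. Whether macrophage RNA had a part in this rise was not tested.

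All 7 calls among 23 NF-kappaB feedback and target genes were higher, 4 of them stable, and 5 passed without either of the Matrigel arrays. Nfkbiz, an atypical inhibitor of the factor, read 8.55 and 8.93 on Matrigel and 7.5, 7.56, 7.56 and 7.79 on plastic (difference 1.14 ± 0.12; adjusted p = 0.00122). Cxcl1, a chemokine for neutrophils, read 10.91 and 10.84 against 9.80, 9.74, 9.96 and 10.02 (difference 1.00 ± 0.11; adjusted p = 0.00122). Tnip1, an adaptor that dampens the pathway, rose by 0.92 ± 0.12, and Nfkb2, a subunit of the factor, by 0.77 ± 0.10. The list's median difference was 0.24. Its mean level was 7.43 and 7.57 on Matrigel and 7.15, 6.92, 7.31 and 7.05 on plastic. The macrophage marker list ran alongside, with 7.21 and 7.55 on Matrigel and 6.84, 6.07, 7.19 and 6.17 on plastic: in both lists Matrigel replicate 2 was highest and plastic replicates 1 and 3 were the highest on plastic. The part of macrophage RNA in these increases was not tested.

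Among 55 interleukin, TNF and chemokine receptors 2 rose and 4 fell (10.9%, near the 10.4% of all genes), and the 3 stable calls were decreases. Ackr3, a scavenging receptor for the chemokine Cxcl12, read 8.16 and 8.13 on Matrigel and 11.16, 11.05, 11.29 and 10.92 on plastic (difference -2.96 ± 0.21; adjusted p = 0.000264). Tnfrsf11b, which encodes the decoy receptor osteoprotegerin, fell by 2.04 ± 0.33 and Osmr, the receptor of oncostatin M, by 0.95 ± 0.14. Clcf1, a ligand of the same cytokine family as Lif, rose by 0.83 ± 0.12. Of the 36 neurotrophic factor and neuropeptide genes it belongs to, 2 rose and 3 fell (13.9%). None of 14 TNF superfamily ligands, 8 of them dim on both surfaces, passed limma's test.

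Coagulation and fibrinolysis genes (30) gave 1 increase and 3 decreases (13.3%, against 10.4% of all genes). Beside F3, its inhibitor gene Tfpi fell, from 8.24, 8.18, 8.23 and 8.17 to 6.68 and 7.39 (difference -1.17 ± 0.18; adjusted p = 0.00469). Serpine2, an inhibitor of thrombin and other serine proteases, rose from 4.56, 4.27, 4.54 and 4.40 to 6.58 and 6.11 (difference 1.90 ± 0.18; adjusted p = 0.000669). Of 27 complement genes 1 rose and 1 fell (7.41%), the latter Cd55.

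Of 31 genes of serine, one-carbon and nucleotide synthesis, 0 rose and 6 fell, and 2 passed without Matrigel replicate 1. Aldh18a1, the first enzyme of proline synthesis, read 8.31 and 8.21 on Matrigel and 9.17, 9.04, 9.20 and 9.18 on plastic (difference -0.89 ± 0.08; adjusted p = 0.000643), and Asns, asparagine synthetase, fell by 0.99 ± 0.15. The amino acid transporter genes (30) had 5 increases and 2 decreases, with 4 calls without Matrigel replicate 1. Slc6a6, the taurine transporter, rose by 1.18 ± 0.12, and Slc1a4, a transporter of neutral amino acids, fell by 1.22 ± 0.16. Smox, spermine oxidase, rose by 1.03 ± 0.14 and was a stable call of the polyamine, arginine and creatine list (27 genes, 2 higher and 3 lower, 2 calls without Matrigel replicate 1), together with Ddah1.

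Glycolysis and hypoxia response genes were divided, 5 higher and 6 lower of 42; 3 passed without Matrigel replicate 1, 5 without plastic replicate 2 and 6 without plastic replicates 1 or 4. The 1 stable call was Egln3, an oxygen-sensing prolyl hydroxylase, which read 8.90 and 9.16 on Matrigel and 7.72, 7.22, 7.42 and 6.97 on plastic (difference 1.70 ± 0.26). Metal ion handling (36 genes) gave 5 increases and 1 decrease, with 4 calls without either Matrigel array. Its stable calls were zinc transporters: the importers Slc39a8 and Slc39a14 rose by 0.84 ± 0.09 and 0.70 ± 0.10, and the exporter Slc30a1 fell by 0.79 ± 0.12. Slc39a8 read 6.70 and 6.76 against 5.80, 5.78, 6.03 and 5.93.

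Lists of the cell's basic machinery had no stable call. Their members nevertheless lay mostly on one side: the difference was above 0 for 17.3% of oxidative phosphorylation genes, 15.1% of ribosomal protein genes and 11.4% of proteasome genes, against 47.2% of all genes, with median differences of -0.14, -0.13 and -0.19. Of the lysosomal genes 68.6% were above 0, with a median of 0.13. These are descriptions without a test, and a re-centring of the arrays moves all of them. Oxidative phosphorylation (52 genes) had 0 higher and 7 lower, ribosomal proteins (73) 0 and 6, proteasome subunits (44) 0 and 3 and lysosomal genes (51) 2 and 1. The shares were 13.5%, 8.22%, 6.82% and 5.88% of these lists, against 10.4% of all genes. In all, without Matrigel replicate 1, 1, 0, 0 and 0 of them passed, and without plastic replicate 1, 1 of each list. The counts were 3, 0, 3 and 2 without Matrigel replicate 2, 2, 1, 1 and 1 without plastic replicate 4, and, without collagen replicate 2, 3 for oxidative phosphorylation and 1 each for the proteasome and lysosome. Without plastic replicate 3, 5 proteasome and 8 lysosomal genes passed, and without collagen replicate 1, 4 of oxidative phosphorylation. Rpl4, one of the ribosomal calls, differed by only -0.32 ± 0.06. Heat shock proteins and chaperones (39) had 0 higher and 6 lower, with 3 calls without either Matrigel array. Its stable calls were the small heat shock proteins Cryab and Hspb7; the latter read 3.04 and 3.18 on Matrigel and 6.01, 5.08, 5.61 and 5.75 on plastic, at least 2.58-fold lower.

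Regulators of growth and death changed in single members. Btg1, an antiproliferative gene, read 10.52 and 10.89 on Matrigel and 9.29, 9.21, 9.52 and 9.46 on plastic (difference 1.34 ± 0.14; adjusted p = 0.00123), and Ccnd3, cyclin D3, fell by 0.50 ± 0.07. They were the stable calls among 19 cell cycle inhibitor and senescence genes, of which 4 rose and 2 fell, with 2 calls without Matrigel replicate 1 and 3 without collagen replicate 1 or plastic replicate 1. Tp53inp1 rose by 0.65 ± 0.09 as the 1 stable call among 26 p53 targets, of which 4 rose and 1 fell, with 2 calls without Matrigel replicate 1 and 3 without Matrigel replicate 2. Cflar, an inhibitor of caspase 8, rose by 0.65 ± 0.09 and Casp12 fell by 0.95 ± 0.15. They are among 32 apoptosis regulators, of which 2 rose and 1 fell (9.38%, against 10.4% of all genes), with 5 calls without collagen replicate 3.

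Of 83 potassium channel genes 4 rose and 2 fell (7.23%); beside Kcnd3, Kcnh1 changed, from 4.94, 4.48, 4.14 and 4.87 to 7.14 and 6.29 (difference 2.11 ± 0.31; adjusted p = 0.00462). Of 69 calcium, sodium and TRP channel genes 5 rose and 1 fell (8.70%), with 3 calls without either Matrigel array or plastic replicates 2 or 4. Piezo1, a channel opened by stretch of the membrane, read 9.13 and 8.90 against 8.09, 8.26, 8.15 and 8.28 (difference 0.82 ± 0.10; adjusted p = 0.00198). Genes listed by symbol as olfactory, vomeronasal and taste receptors, families with little expression outside sensory cells, were dim on both surfaces in 229 of 231 cases. Of these, 4 passed (1.73%), and 2 without collagen replicate 3 or plastic replicates 1, 2 or 4. The symbols matched imperfectly, so the counts are not exact for these families. Olr1, which passed (difference -2.89) but was not a stable call, is a receptor of oxidized LDL. The olfactory receptor gene Or6c33b, a stable call, was not matched. It was dim on both surfaces, at 2.99 and 2.97 on Matrigel against 2.55, 2.52, 2.54 and 2.38 on plastic. Its fitted difference (0.48 ± 0.08) is therefore no exact size. Cytochrome P450 genes (69) gave 2 increases and 5 decreases (10.1%, near the 10.4% of all genes), with 4 calls without plastic replicates 1 or 4 and no stable call.

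**Figure D3:**
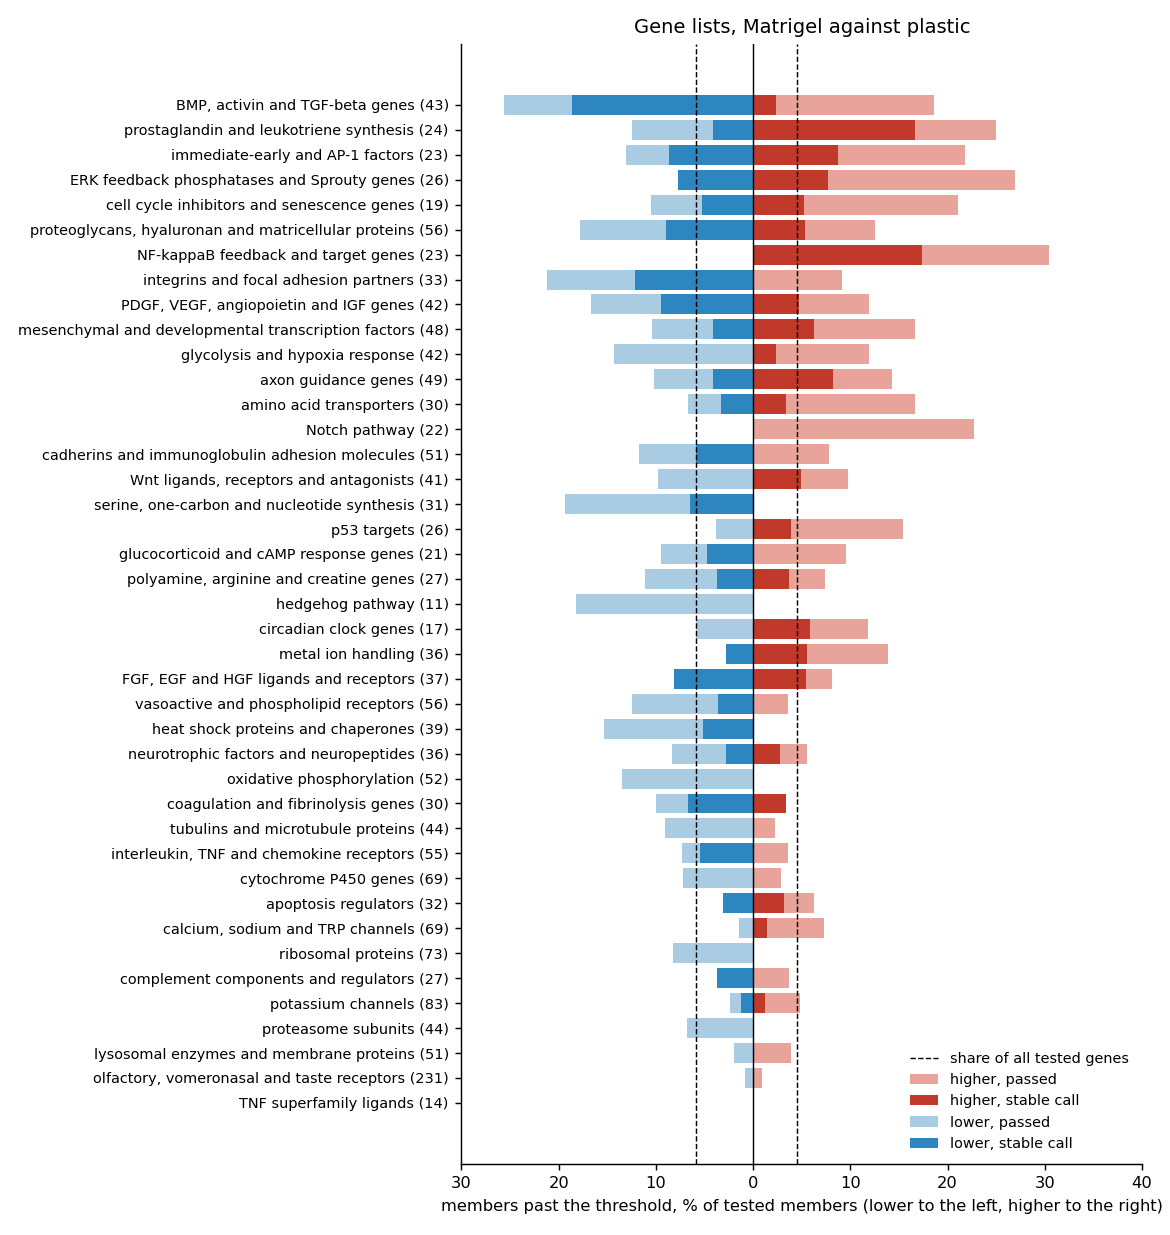
Share of the tested members of each gene list described here that passed the test (x axis, %), lower on Matrigel to the left in blue and higher to the right in red, with stable calls in the darker shade and the number of tested members in brackets. Cell type marker lists are not drawn, and members and lists were chosen with earlier results of these data known. Dashed lines mark the shares of all tested genes, 5.85% lower and 4.52% higher; among the lists drawn, BMP, activin and TGF-beta genes have the largest share, and NF-kappaB genes have calls only on the higher side.

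Against collagen I, 387 genes passed on the same arrays (2.67%), 176 higher and 211 lower on Matrigel. The calls depended on how the spread was estimated. With only the Matrigel and collagen arrays in the fit, limma called 0 genes, with 2094 at an unadjusted p under 0.05 against 2456 in the fit of all 9 arrays, and without collagen replicate 2 the count was 68. Of the 404 stable calls against plastic, 134 also passed against collagen in the same direction, 2 passed in the opposite direction and 268 did not pass. The Matrigel arrays are shared by both comparisons, so these counts are not independent.

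Genes that differed from both surfaces by similar amounts included Crip1, Thy1 and Gpd1. Crip1 read 8.31, 8.67 and 8.59 on collagen, as high as on plastic, and 5.63 and 5.06 on Matrigel (difference from collagen -3.18 ± 0.32; adjusted p = 0.00582). Thy1 read 9.96, 10.23 and 9.84 on collagen (difference -1.80 ± 0.22; adjusted p = 0.0101), and Gpd1 read 4.18, 4.19 and 3.73. Rsrp1, a gene for an arginine- and serine-rich nuclear protein, read 7.20 and 7.56 on Matrigel, 6.17, 6.20, 6.14 and 6.23 on plastic and 5.96, 6.15 and 6.11 on collagen (difference from collagen 1.31 ± 0.11; adjusted p = 0.0038). Tram1l1, a translocon-associated membrane protein gene, read 5.39 and 5.47 on Matrigel and 6.69, 6.73 and 6.67 on collagen (difference -1.27 ± 0.10). These 5 genes passed against collagen in each of the 14 fits of the stability rule that kept all 3 surfaces, and with the title letter as a fixed replicate block (adjusted p from 0.00686 to 0.0357), a fit in which the count of 387 fell to 66. None passed with the Matrigel and collagen arrays alone (adjusted p from 0.119 to 0.124).

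For other genes the collagen arrays lay between the surfaces. Klf4, a zinc finger factor, read 6.51 and 6.26 on Matrigel, 8.03, 7.61 and 7.49 on collagen and 8.87, 8.80, 9.01 and 8.47 on plastic; its difference from collagen was -1.32 ± 0.19 (adjusted p = 0.0153), lost without collagen replicate 2 or Matrigel replicate 2. F3 read 7.20, 7.51 and 9.04 on collagen. Its difference there, -2.19 ± 0.45 (adjusted p = 0.0448), held in 5 of the 14 fits and was lost without Matrigel replicates 1 or 2, collagen replicate 2 or any of the plastic arrays, with array weights and with plastic replicates 1 and 3 alone. With the fixed replicate block the call of Klf4 held (adjusted p = 0.0275) and that of F3 was lost (0.102).

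The 2 stable calls with opposite directions were the cytokine gene Lif and Nfkbiz. Lif read 9.84, 10.14 and 10.04 on collagen, above both Matrigel arrays (difference -1.09, adjusted p = 0.0259) and far above all plastic arrays. Nfkbiz read 9.55, 9.70 and 9.65 on collagen (difference -0.89, adjusted p = 0.0145). Both calls were lost with the fixed replicate block (adjusted p = 0.135 and 0.0659). For several of the genes with the largest differences from plastic, collagen arrays read near Matrigel: Ptgs2 read 10.26, 10.74 and 10.80 there, Rasd1 9.20, 9.05 and 8.65, Ccdc80 8.94, 9.04 and 9.12 and Cntn2 3.85, 4.21 and 4.0. None of these 4 passed between Matrigel and collagen, which does not show that they were equal.

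**Figure D4:**
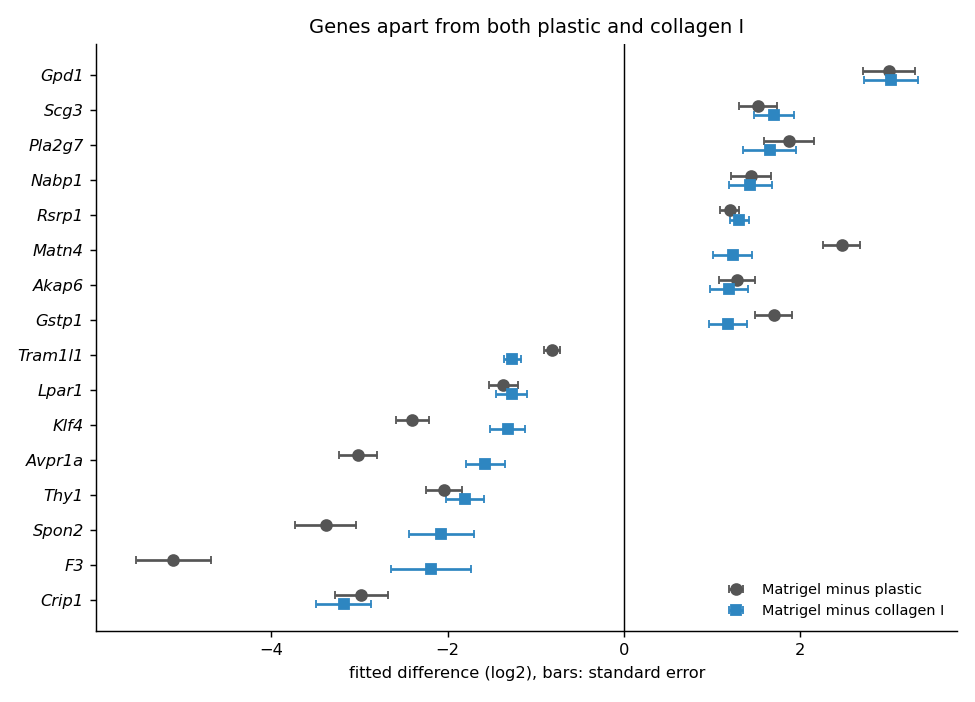
Fitted differences (x axis, log2) of Matrigel from plastic (grey circles) and from collagen I (blue squares) for the 16 stable calls named for passing in both comparisons, with standard errors as bars. Crip1, Thy1, Gpd1 and Rsrp1 lie at nearly the same place in both comparisons, whereas F3 and Avpr1a differ less from collagen than from plastic; for Gpd1 and Scg3, whose plastic and collagen levels are dim, and for Akap6, dim on all 3 surfaces, both are fitted values and not exact sizes.

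Marker lists of other cell types differed in mean level between the arrays, and their part in the differences above was not tested. The stellate cell and fibroblast list (16 genes) averaged 8.77 and 8.81 on Matrigel and 9.28 to 9.47 on plastic, with 0 genes higher and 5 lower, or 3 without Matrigel replicate 1. The macrophage list (25 genes) averaged 7.21 and 7.55 on Matrigel and 6.84, 6.07, 7.19 and 6.17 on plastic, with 2 higher (8%, against 10.4% of all genes), 0 stable and a median difference of 1.00; 0 passed without either Matrigel array or plastic replicate 2, 1 without plastic replicates 1 or 4, 5 without collagen replicate 3 and 7 without plastic replicate 3. Its plastic values fell into those of letters A and S, near Matrigel, and those of letters P and Z, lower. A stable call had to pass in the fit that kept plastic replicates 1 and 3 alone. The macrophage means still differed there, 7.21 and 7.55 on Matrigel against 6.84 and 7.19 on plastic. The part of macrophage RNA in the stable calls was not tested.

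The islet list (17 genes) averaged 6.88 and 5.97 on Matrigel and 5.4, 4.83, 5.04 and 4.72 on plastic; 11 genes rose (64.7%), but 3 passed without Matrigel replicate 1, 5 without plastic replicates 2 or 4, 6 without plastic replicate 3 and 7 without collagen replicate 2. Ins1, an insulin gene, read 12.17 and 11.34 against 10.74, 9.82, 9.74 and 8.92, and Scg3, a secretory granule protein and the 1 stable call, read 4.85 and 4.15 against 3.16, 2.77, 3.16 and 2.83. The acinar list (23 genes) averaged 4.38 and 3.69 against 3.25 to 3.37, with 3 higher, or 11 without Matrigel replicate 2. The 3 acinar calls were 13% of the list, against 10.4% of all genes. Ctrb1, chymotrypsinogen, read 10.42 and 8.13 against 5.66, 5.75, 5.48 and 5.03 (difference 3.80 ± 0.56). Its difference was 2.65 without Matrigel replicate 1 and 4.94 without Matrigel replicate 2. Matrigel replicate 1 was thus the higher of the Matrigel arrays for islet and acinar genes and the lower for macrophage genes. Lymphocyte genes (16) averaged 3.47 and 3.54 against 3.25 to 3.46, under the dim level, and 0 passed limma's test.

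The adipocyte list (13 genes), whose means are given beside Gpd1, had 6 genes higher (46.2%) and 0 lower, with a median difference of 0.53, and all 13 differences were above 0. Gpd1 was its 1 stable call; 4 passed without Matrigel replicate 1, plastic replicate 2 or collagen replicate 2, and 3 without Matrigel replicate 2 or plastic replicates 1 or 4. The list also holds lipid genes that are not described here.

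**Figure D5:**
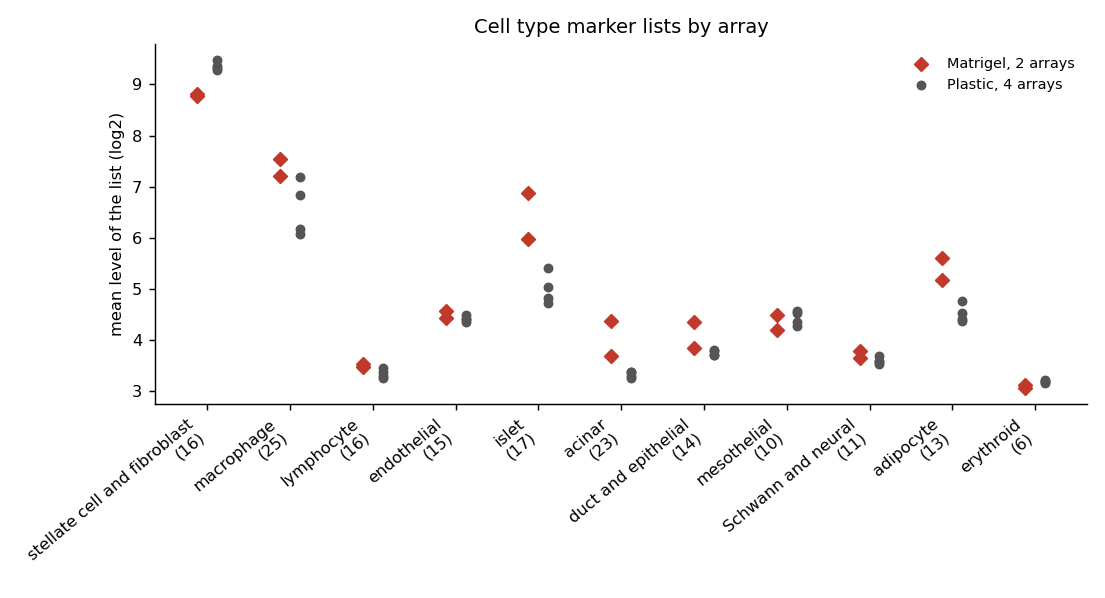
Mean level (y axis, log2) of each cell type marker list, with its number of tested genes in brackets, on the 2 Matrigel arrays (red diamonds) and the 4 plastic arrays (grey circles). Macrophage, islet, acinar and adipocyte lists were higher on the Matrigel arrays in the mean, plastic replicates 1 and 3 being near Matrigel for macrophage genes, and the stellate cell and fibroblast list was lower.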

How the data were processed

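The values are log2 expression levels that the authors made with RMA, per the submitters' processing notes; the software and build: not given in the sources used here. Of 29215 entries, 15310 had exactly 1 gene symbol in the array's probe table, 323 several and 13582 none; each gene is represented by its brightest entry in the mean of the 9 arrays, which dropped 804 and gave 14506 genes. Limma 3.58.1 in R 4.3.3 fitted a mean for each surface to all 9 arrays, leaving 6 residual degrees of freedom, with empirical Bayes moderation, two-sided, adjusted by Benjamini-Hochberg. Errors beside differences are standard errors.

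A stable call passed also with arrays re-centred on their medians, quantile normalized again, only the 2 compared groups, plastic replicates 1 and 3 (letters A and S) alone, trend and robust moderation, array weights, and each array left out. Named were the 14 stable calls with the largest non-overlapping difference in each direction, outside the contractile, collagen and lipid genes and predicted genes; up to 6 stable calls with the smallest p of each list (or the 2 members with the smallest p); for each marker list the 4 brightest members and the 2 with the smallest p; 8 stable calls in each direction with the largest same-sign difference from collagen; and Acta2, Des, Vim, Col1a1 and Col1a2. The text prints a part of them. Other alternatives were a filter at the 40th percentile of mean level (log2 4.25, the dim level), every entry tested, the title letter as a replicate block, and re-centring on the median of the tested genes, which was chosen after seeing the data. Where a group's mean was dim, the change is given as a lower bound, with values of the dim group raised to the dim level. Members and lists were chosen with earlier results of these data known. Promoters came from RefSeq GRCr8; F3 had no entry.

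Separate animals or cultures are not stated for the arrays, so replicates may be technical, and the p-values then reflect the spread between these samples alone. The meaning of the title letters is not stated and Matrigel shares only 2 letters with plastic; deviations from the group means correlated at -0.131 for A and 0.406 for S, where both Matrigel arrays mirror each other, so letters were not taken as pairs. The fitting script was tested on simulated data. Results of 1 gene list are not reported here.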

Additional observations from a re-analysis of the deposited data

Results flagged for a closer look

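Among the 4 plastic arrays, 11 of the 193 named genes had 1 array standing apart from the other 3 by more than Dixon's 95% limit; chance alone flags about 1 in 20 groups. Plastic replicate 2 stood apart for 6 genes: it was high for Cntn2 (7.12) and Tubb3 (8.02), and low for Spp1 (8.37), Nrp1 (8.03), Wt1 (8.06) and Foxd3 (4.35). Plastic replicate 4 stood apart for 4 genes: Spry4 (6.55) and Slc4a4 (7.05) were high, and Krt8 (4.88) and Zap70 (3.85) were low. Plastic replicate 1 was high for Hbb-b1 (3.18), a dim globin gene. Of these, Cntn2, Spp1, Nrp1, Wt1 and Spry4 were stable calls, which also passed without the array that stood apart.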

How the results depend on the processing

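The stable calls rest on 2 Matrigel arrays and hold by construction in 15 fits. All 404 also passed with every entry tested and with the title letter as a fixed or random replicate block. With the filter on dim genes 391 passed, and the others were removed by the filter before the test. The count between Matrigel and plastic (1504) moved to 628 with plastic replicates 1 and 3 alone and ranged from 759 to 1461 when 1 array was left out. It was 1504 with the fixed replicate block, of which 1102 genes were shared, and 1760 with the random one. The count between Matrigel and collagen I (387) moved to 0 when just the Matrigel and collagen I arrays were fitted, 90 with plastic replicates 1 and 3 alone, 257 with array weights and 66 with the fixed replicate block, and ranged from 68 to 352 with 1 array left out. Of the named genes' values under alternatives, 3668 kept direction and call, 147 lost the call, 14 gained it and 17 changed sign; the last were all of genes that had not passed, and their cause was not tested. With 1 array left out, these genes' differences ranged from -0.064 to 0.008 (Alas2), -0.249 to 1.1 (Cd163), -0.002 to 0.155 (Gzmb), -0.32 to 0.056 (Hbb), -0.348 to 0.887 (Lpl), -0.31 to 0.274 (Msln), -0.085 to 0.511 (Spint2) and -0.457 to 0.367 (Tek). With plastic replicates 1 and 3 alone the values of changed sign were Cd163 (-0.371), Dcn (-0.012) and Lpl (-0.188), with the fixed replicate block Cd163 (-0.183), Lpl (-0.243) and Tek (0.004), and with quantile normalization Msln (0.001).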

Other observations

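Stable calls outside the gene lists, chosen here after their values were seen, give further biology; they are single genes and stand for no group. Ifit1, an antiviral RNA-binding protein induced by interferon, read 4.40 and 5.46 on Matrigel and 8.15, 7.29, 7.79 and 7.09 on plastic (difference -2.65 ± 0.38, SE; adjusted p = 0.0039 with limma). Bst2, which tethers virus particles to the cell, read 7.41 and 8.20 against 9.91, 9.23, 9.72 and 9.55 (difference -1.80 ± 0.28), and Ifitm1 read 8.18 and 9.0 against 10.06, 9.67, 10.01 and 9.71 (difference -1.28 ± 0.22). Caveolae, the flask-shaped pits of the membrane, need Cav1 and Cavin1. Cav1 read 8.89 and 8.74 against 10.17, 10.04, 9.96 and 10.07 (difference -1.24 ± 0.11), and Cavin1 fell by 1.31 ± 0.10. Adamts5 and Adamts1, proteases that cut aggrecan and versican, fell by 2.87 ± 0.40 and 2.09 ± 0.28. Sars1 and Gars1, tRNA synthetases for serine and glycine, fell by 0.61 ± 0.08 and 0.54 ± 0.07.

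Single genes of chromatin differed in both directions. The acetyltransferase gene Ep300 read 7.45 and 7.43 on Matrigel and 6.85, 6.87, 6.76 and 6.87 on plastic (difference 0.60 ± 0.07; adjusted p = 0.00154 with limma). The methyltransferase gene Kmt2d rose by 0.86 ± 0.12 and the histone demethylase gene Kdm6b by 0.84 ± 0.13, whereas the deacetylase gene Hdac1 fell by 0.56 ± 0.07 and Jade1, a subunit of acetyltransferase complexes, by 1.94 ± 0.16. Srsf11, a splicing factor, rose by 0.71 ± 0.08, the kinase of such factors Clk2 by 0.53 ± 0.07 and the cyclin Ccnl2 by 0.90 ± 0.10. Mgp, an inhibitor of calcification, was among the brightest genes that rose, from 10.57, 10.48, 11.26 and 10.34 to 12.62 and 12.69 (difference 1.99 ± 0.22). Cxcl16, a membrane-bound chemokine, read 11.47 and 10.90 against 9.33, 8.96, 9.45 and 9.11 (difference 1.97 ± 0.21). Gstp1, a glutathione transferase, read 11.10 and 10.78 against 9.37, 8.97, 9.27 and 9.35 (difference 1.70 ± 0.21), and Gsta4 rose by 1.13 ± 0.17, whereas the glutathione peroxidase gene Gpx8 fell by 0.77 ± 0.10.

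The annotated gene, from start to end, had a median length of 38.1 kb among the stable calls higher on Matrigel, 24.6 kb among those lower and 21.9 kb among all genes above the dim level. This is a description without a test, and its cause was not tested.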
